A study of Mus musculus with 6 samples.

Results

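The genes described here are the collagen chain genes of the mouse ovary, taken as every row of the deposited count table whose symbol is Col, a number, a and a number. The rule found 44 genes of the 51826 in the table. It takes no measured value into account. The table covers 6 bulk RNA-seq libraries made from ovaries of ICR mice, an outbred strain. Of these, 2 libraries are titled COH, an abbreviation left unexplained in the labels, which list no model or agent for them. Another 2 come from mice labelled as the OHSS model, OHSS being ovarian hyperstimulation syndrome, in which hormone stimulation leaves the ovaries enlarged and their vessels leaky. The last 2 come from OHSS mice that received the agent Nintedanib (bibf1120), an inhibitor of receptor kinases for VEGF, PDGF and FGF that is used against lung fibrosis. The labels give no age, dose, time of collection or hormone schedule, and do not say whether the 2 libraries of a group come from separate animals. If they do not, each p-value reflects technical spread alone, since it rests on the spread of these libraries.

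Collagens are secreted proteins built of 3 chains wound around each other, and the winding needs a glycine followed by 2 other residues, over and over. Fibrillar collagens form the banded fibres of the ovarian stroma and of the theca around follicles, type IV collagens form the sheet of the basement membranes under granulosa cells and endothelium, and type VI collagens form beaded filaments in the space between these structures. Fibril-associated collagens coat fibrils, multiplexins sit at the basement membrane zone, and transmembrane collagens stay anchored in the cell surface.

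The coding sequences show the feature that sets the fibrillar chains apart from the network formers. The stretches of 54 bases printed here open the longest glycine run of Col1a1 (coding bases 502 to 555) and of Col1a2 (289 to 342), and close that of Col4a1 (460 to 513) and of Col4a2 (2896 to 2949). They are read 5′ to 3′ from GENCODE M21 transcripts, and capitals mark glycine codons.
Col1a1: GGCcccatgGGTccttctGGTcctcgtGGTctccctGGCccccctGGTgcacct
Col1a2: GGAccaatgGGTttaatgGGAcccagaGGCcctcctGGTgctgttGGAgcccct
Col4a1: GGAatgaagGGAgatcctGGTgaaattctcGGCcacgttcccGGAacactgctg
Col4a2: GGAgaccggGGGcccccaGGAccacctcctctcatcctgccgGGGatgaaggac
In Col1a1 and Col1a2 2 other codons separate each glycine codon from the next, while in Col4a1 and Col4a2 the spacing breaks after 3 printed repeats. The longest run with that spacing unbroken was 338 repeats in Col1a1, 339 in Col1a2 and 344 in Col3a1, against 40 in Col4a1 and 66 in Col4a2. Over the classes it spanned 216 to 344 repeats in the 11 fibrillar chains, 39 to 66 in the 6 type IV chains and 37 to 87 in the 6 type VI chains. The 2 lowest of the fibrillar class were Col24a1 with 216 and Col27a1 with 217.

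Several chains are also neighbours in the genome. In RefSeq's table for GRCm38.p6, Col4a1 and Col4a2 start head to head within the window chr8:11312802-11312829, printed here from the + strand because both start sites lie in it.
Col4a1 and Col4a2 start sites: ggcAgtgcgcgggcggcgtctccaAggg
The first capital is the first base of Col4a2, read to the right, and the second capital is the first base of Col4a1, read to the left on the other strand. Their first exons share 22 bases in GENCODE M21. Col4a3 and Col4a4 on chromosome 1, with 72 bases between them, and Col4a5 and Col4a6 on chromosome X, with 1309 bases, are arranged the same way. Col3a1 and Col5a2 lie tail to tail on chromosome 1, Col6a1 and Col6a2 lie in tandem on chromosome 10, and Col6a4, Col6a5 and Col6a6 lie in tandem on chromosome 9. Whether the counting used strand is not given in the sources used here. Overlap with other genes covered 6.07% of the exonic bases of Col9a3, 5.65% of those of Col4a3, 3.39% for Col6a4, 2.5% for Col5a1 and at most 1.54% of those of any other chain, each base counted once.

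Total counts were 28498435 to 34716751 per library. Markers of the ovary were present in all 6 libraries, among them Foxl2 (granulosa cells), Star (steroid synthesis) and Zp3 (oocytes), and so were Col1a1 and Col1a2, the markers given for the collagen genes. No library pair held identical counts. The median absolute log2 difference between the 2 libraries of a group was 0.16 for the tested chains in COH, 0.33 in the OHSS pair and 0.34 with the drug, against 0.20, 0.26 and 0.27 for all 19027 genes tested.

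Collagen chains made up 0.895% of all counts in each COH library. Their share was 0.80% and 0.707% in the OHSS pair, and 0.835% and 0.831% in the nintedanib pair. Of the 44 genes, 39 had a mean of at least 1 CPM (counts scaled to a common library size after TMM normalization) and were tested, and 5 were low and were not. The fibrillar class held 43.6% of collagen counts, type IV 24.3%, type VI 23.6%, the multiplexins 5.45%, and the fibril-associated chains 2.37%. Col1a1, Col1a2 and Col3a1 alone took 37.8%, Col4a1 and Col4a2 22.4%, and Col6a1, Col6a2 and Col6a3 19.97%.

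Levels per kilobase of transcript allow a rough comparison of different genes. The length used was that of the transcript with the longest coding sequence. All annotated exons together are longer, at 12426 bases for Col1a2 against 5348 used, and 4380 for Col6a1 against 4100 used. The order given here therefore depends on that choice. It was led by Col1a2, Col3a1 and Col6a1 at means of 213, 213.0 and 211 CPM per kb. These 3 means differ by less than the spread between libraries. Col4a1 followed at 165, Col1a1 at 133, Col6a2 at 129 and Col4a2 at 118 CPM per kb. A gap then separated these 7 chains from Col15a1 at 46.2, Col18a1 at 38.2, Col5a1 at 28.2 and Col6a3 at 27.7 CPM per kb. Thus Col6a3, whose product joins those of Col6a1 and Col6a2 in 1 trimer, stood well below both in RNA per kb. The lowest tested chains were Col24a1 at 0.364 and Col9a3 at 0.428 CPM per kb.

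**Figure D1:**
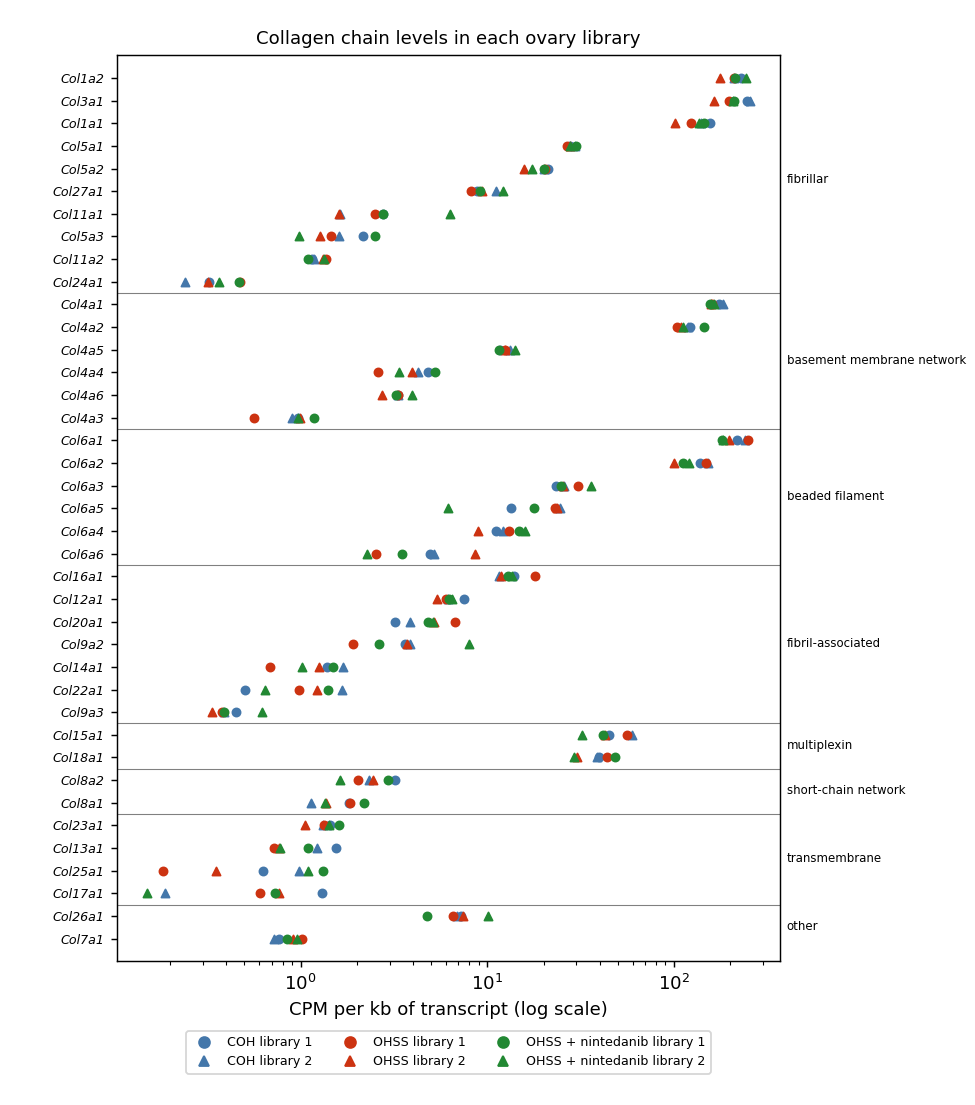
Level of each of the 39 tested collagen chains in each of the 6 libraries, in CPM per kb of transcript on a log axis, with chains grouped by class and ordered by mean within a class. Colours are groups, circles library 1 and triangles library 2; 7 chains of the fibrillar, type IV and type VI classes lie above 100 on average and the other 32 lie below 50.

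The 5 low chains are mostly known from cartilage or from few cell types. Col9a1, a cartilage chain, had 0 counts in all 6 libraries, which allows up to 6 counts (3 read pairs) or 0.169 to 0.21 CPM in a library, for counting error only. Col2a1, the chain of cartilage fibrils, had 0 counts in 4 libraries, 2 in the second OHSS library and 6 in the first nintedanib library. Col10a1, known from the growth plate, had between 0 and 9 counts, Col19a1 between 0 and 6 and Col28a1 between 0 and 18. The partners Col9a2 and Col9a3, which join Col9a1 in cartilage, averaged 11.55 and 1.305 CPM here.

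The first comparison, OHSS against COH, sets the syndrome model beside the COH ovaries. The most abundant fibrillar chains had lower means in OHSS, and the OHSS and COH libraries did not overlap for Col1a1 and Col3a1. All 6 type IV chains also had lower means, by less, and type VI chains were split. Of the 39 tested chains, 29 were lower and 10 higher, and edgeR (adjusted p below 0.05) called 0, against 0.0105% of all genes tested. DESeq2 called 1 chain, where it called 1.83% of all genes, and limma voom 0. The median log2 fold change, called the log2 difference from here on, was -0.12 over the chains, and that of all genes was -0.00, of which 50.4% were lower. In whole-tissue RNA, fewer cells of a type and less RNA per cell cannot be told apart.

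Col1a1 encodes the α1 chain of type I collagen, the main fibre protein of stroma. It stood at 920.1 and 823 CPM in COH and at 727 and 599 CPM in OHSS. Both OHSS libraries were below both COH libraries, a log2 difference of -0.39 (SE 0.14, 95% interval -0.75 to -0.04, edgeR adjusted p = 0.542). Col1a2, its partner chain, stood at 1219.8 and 1123 CPM in COH and at 1127 and 948 CPM in OHSS. Here the groups overlapped, and the log2 difference was -0.17 (SE 0.15, edgeR adjusted p = 0.752). It was -0.06 without the second OHSS library, -0.29 without the first and -0.11 without the first COH library.

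Col3a1, the chain of type III collagen that is laid down with type I in soft tissue, stood at 1374 and 1418 CPM in COH and at 1097 and 909 CPM in OHSS. Both OHSS libraries were lower, with a log2 difference of -0.48 (SE 0.13, 95% interval -0.81 to -0.15, edgeR adjusted p = 0.532). The intervals of Col1a1 and Col3a1 leave out 0, but the adjusted p did not pass. It did not pass with DESeq2 either, which gave an adjusted p of 0.321 for Col1a1 and 0.0691 for Col3a1. Fibrillar CPM summed to 3998 and 3859.9 in COH and to 3414 and 2894 in OHSS. Of the 10 tested fibrillar chains 8 were lower, with a median of -0.18. That median was -0.08 without the second OHSS library and -0.33 without the first. The 2 higher chains were minor ones, Col11a2 at 0.20 and Col24a1 at 0.49 on the log2 scale.

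Among type IV chains, Col4a1 stood at 1149 and 1205 CPM in COH and at 1053 and 1041 CPM in OHSS, a log2 difference of -0.17 (SE 0.10, edgeR adjusted p = 0.68). Col4a2, the partner in the same trimer, stood at 785 and 766 CPM against 669 and 704 CPM, a log2 difference of -0.18 (SE 0.15, edgeR adjusted p = 0.756). For both genes the groups did not overlap. Col4a4, which with Col4a3 and Col4a5 makes the trimer of the kidney filter, stood at 48.3 and 43.2 against 26.3 and 39.8 CPM. Its log2 difference was -0.47 (SE 0.29), and the lower value lay in the first OHSS library. The median of the 6 was -0.17.

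Type VI chains ran from -0.22 for Col6a2 to 0.30 for Col6a5, with 3 lower and 3 higher and no chain whose groups parted. Their median of 0.05 turned to -0.09 without the first COH library, -0.07 without the first OHSS library, -0.01 with library size scaling only, -0.003 with the replicate block (replicate number as a covariate) and -0.07 with limma voom. Col6a1 stood at 893 and 985 CPM in COH and 1024 and 805 CPM in OHSS. Summed type VI CPM was highest and lowest, among the 4 COH and OHSS libraries, in the 2 OHSS libraries, at 2255 and 1818.

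**Figure D2:**
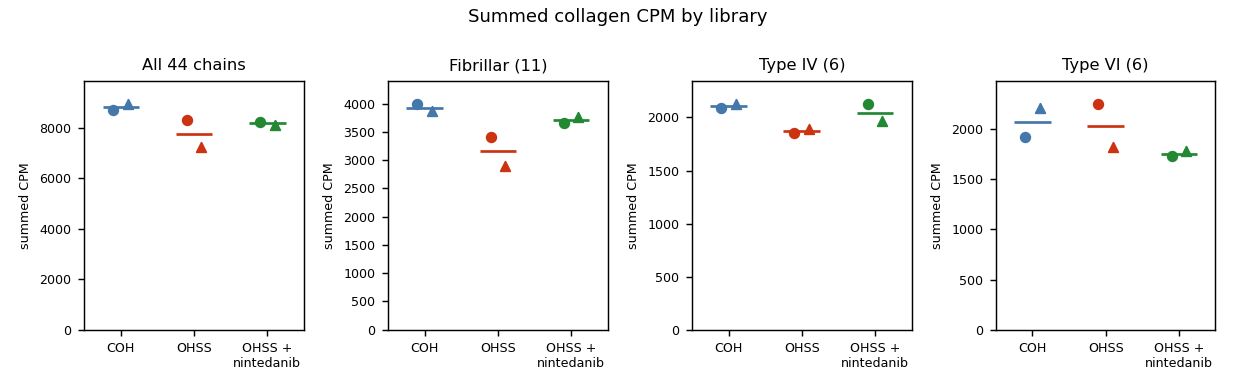
Summed CPM of all 44 chains and of the fibrillar, type IV and type VI classes in each library (circle library 1, triangle library 2, line the group mean). Fibrillar and type IV sums lie lower in both OHSS libraries than in both COH libraries, while the type VI sums of COH and OHSS overlap.

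At an unadjusted p under 0.05 there were 5 chains, 1 higher and 4 lower, where 8.82% of all genes passed, 4.59% higher and 4.24% lower. The groups did not overlap for 15 chains, 3 higher and 12 lower, against 44.1% of all genes, 21.2% higher and 22.9% lower. The 3 other chains at an unadjusted p under 0.05, beside Col1a1 and Col3a1, were low in abundance.

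Col20a1, a fibril-associated chain, stood at 14.3 and 17.2 CPM in COH and at 30.2 and 23.3 CPM in OHSS. Both OHSS libraries were higher, a log2 difference of 0.76 (SE 0.18, 95% interval 0.30 to 1.22, edgeR adjusted p = 0.522). DESeq2 gave an adjusted p of 0.0339 with a log2 difference of 0.78, and over the alternatives the adjusted p ran from 0.0339 to 0.988. Of the exonic bases of Col20a1, 1.54% are shared with another gene model on the same strand, so a small part of its counts is uncertain. Col13a1, a transmembrane chain of cell adhesion sites, stood at 4.86 and 3.89 CPM in COH and at 2.28 and 2.41 CPM in OHSS. Its log2 difference was -0.90 (SE 0.30, edgeR adjusted p = 0.542), with groups that did not overlap.

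Col25a1, a transmembrane chain known from neurons and muscle, stood at 1.66 and 2.56 CPM in COH and at 0.482 and 0.924 CPM in OHSS. The counts were 59 and 73 in COH and 15 and 28 in OHSS. The log2 difference was -1.58 (SE 0.45, edgeR adjusted p = 0.532), and both OHSS libraries were lower. With Col23a1 and Col17a1, the rest of the class, all 4 transmembrane chains had lower means, with a median of -0.56. Col17a1, a chain of epithelial anchoring sites, differed more within COH, at 7.25 and 1.05 CPM, than between the group means. The summed CPM of 4 surface epithelium markers also differed within COH, at 66.9 and 38.3. In OHSS the markers summed to 26.3 and 48.3 CPM, with Col17a1 at 3.38 and 4.29 CPM. With nintedanib they summed to 18.6 and 39.5 CPM, with Col17a1 at 4.06 and 0.84 CPM. There the higher sum and the higher Col17a1 value lay in different libraries. The part of these cells in the Col17a1 values was not tested.

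Markers of other cells were measured beside these chains. All 5 endothelial markers had lower means in OHSS, with sums of 485 to 488 CPM in COH and 376 to 428 CPM in OHSS, and a median of -0.25. Of 6 stromal fibroblast markers 5 were lower, with a median of -0.27 and overlapping sums of 1609 to 1771 CPM in COH and 1291 to 1924 CPM in OHSS. Of 7 smooth muscle and pericyte markers 6 were higher, with a median of 0.09. The 3 theca and luteal markers had higher means, though the groups overlapped for Lhcgr, with sums of 1568 and 1979 CPM in COH and 4484 and 2947 CPM in OHSS. Lower means were also found for all 3 erythroid markers (median -0.93, sums of 166 CPM in both COH libraries and 43.8 and 130.5 CPM in OHSS), all 3 oocyte markers (median -0.56, 85.9 to 128 CPM in COH and 67.1 to 79.0 CPM in OHSS) and all 4 surface epithelium markers (median -0.48, overlapping sums). No marker of these 7 lists was at 0. The 3 tested adipocyte markers also had higher means (median 0.15), with sums of 33.5 and 33.2 CPM in COH and 76.5 and 41.9 CPM in OHSS. Cfd among them stood at 0.386 and 5.11 CPM within the OHSS pair, and the adipocyte marker Lep had 0 counts in every library. Of 3 oviduct epithelium markers 2 were lower (median -0.01). The part of all these cells in the collagen values was not tested.

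**Figure D3:**
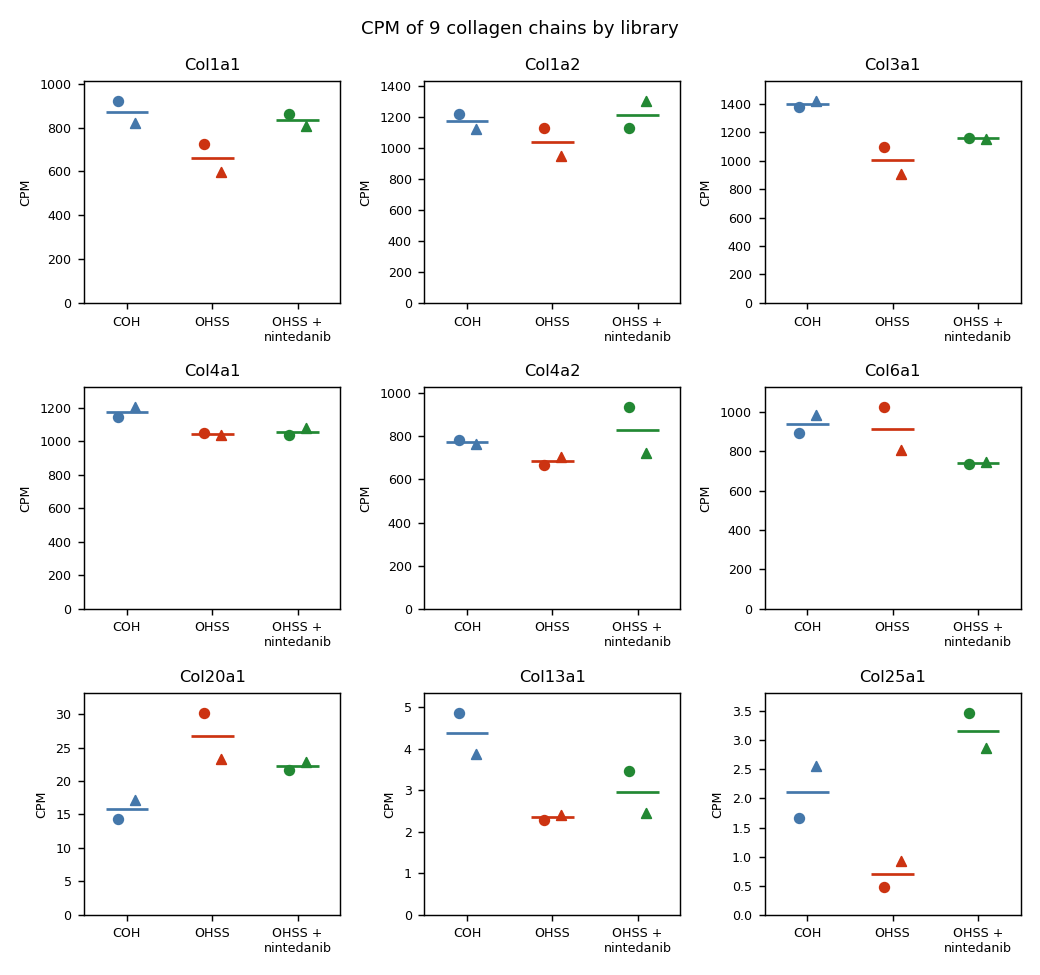
CPM of 9 collagen chains in each library (circle library 1, triangle library 2, line the group mean of 2). For Col1a1, Col3a1, Col4a1, Col4a2, Col13a1 and Col25a1 both OHSS points lie below both COH points, and for Col20a1 both lie above.

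The second comparison, OHSS with nintedanib against OHSS, sets the drug beside the untreated model. It shares the OHSS libraries with the first comparison, so the values of the 2 comparisons are only set side by side. Fibrillar and type IV chains mostly had higher means with nintedanib than in OHSS, and type VI chains mostly lower ones. Of the 39 chains 28 were higher and 11 lower, where 48.5% of all genes were lower, and edgeR called 0, against 0.00526% of all genes. DESeq2 called 1 chain, where it called 1.12% of all genes, and limma voom 0, against 0.00526%. The median was 0.12, where that of all genes was 0.01. It was 0.05 without the first nintedanib library and 0.20 without the first OHSS library.

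Col1a1 stood at 863 and 806 CPM with nintedanib, above the OHSS values of 727 and 599 CPM, a log2 difference of 0.33 (SE 0.14, 95% interval -0.02 to 0.69, edgeR adjusted p = 0.682), and 0.20 without the second OHSS library. Col1a2 stood at 1128 and 1301 CPM with nintedanib and at 1127 and 948 CPM in OHSS, a log2 difference of 0.23 (SE 0.15, edgeR adjusted p = 0.752). For Col1a2 the lower nintedanib library and the higher OHSS library differed by less than 1 CPM, and the difference was 0.11 without the second OHSS library, 0.12 without the second nintedanib library and 0.34 without the first OHSS library. Col3a1 stood at 1159 and 1155 CPM, above both OHSS libraries, a log2 difference of 0.21 (SE 0.13, edgeR adjusted p = 0.752), which was 0.08 without the second OHSS library and 0.33 without the first. Of the 10 tested fibrillar chains 9 were higher, with a median of 0.22, which was 0.33 without the first OHSS library and 0.11 without either the second OHSS or the first nintedanib library.

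Col11a1, a minor fibrillar chain that helps to start fibrils, stood at 21.2 and 48.1 CPM with nintedanib and at 19.3 and 12.3 CPM in OHSS. The difference of 1.13 (SE 0.49, edgeR adjusted p = 0.685) rested on the second nintedanib library and was 0.42 without it. Col5a1 and Col5a2, which set the width of type I fibrils, differed by 0.08 (SE 0.10) and 0.05 (SE 0.16). Neither chain showed a difference beyond its SE. Col5a3 and Col27a1, 2 further fibrillar chains, differed by 0.35 (SE 0.45) and 0.27 (SE 0.19), after -0.47 (SE 0.45) and -0.18 (SE 0.19) in OHSS against COH.

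Of type IV chains, Col4a2 stood at 935 and 724 CPM with nintedanib and at 669 and 704 CPM in OHSS, a log2 difference of 0.27 (SE 0.15, edgeR adjusted p = 0.724), and 0.07 without the first nintedanib library and 0.45 without the second. Col4a1 stood at 1036 and 1079 CPM with nintedanib and at 1053 and 1041 CPM in OHSS, a log2 difference of 0.01 (SE 0.10, edgeR adjusted p = 0.981). Its 2 groups overlapped, and the sign turned without the second nintedanib library. All 6 type IV chains had fitted differences above 0, with a median of 0.26, which was 0.10 without the first OHSS library and 0.12 without the first nintedanib library. Only for Col4a2 among them did the groups part.

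Of type VI chains, Col6a1 stood at 737 and 746 CPM with nintedanib and at 1024 and 805 CPM in OHSS, a log2 difference of -0.30 (SE 0.15, edgeR adjusted p = 0.709). Col6a4 went the other way, with 110 and 118.0 CPM against 96.9 and 65.7 CPM, a log2 difference of 0.49 (SE 0.20, edgeR adjusted p = 0.675), and 0.23 without the second OHSS library and 0.77 without the first. Col6a5, an alternative to the α3 chain of the trimer, stood at 165 and 57.3 CPM against 215 and 219 CPM, a log2 difference of -0.97 (SE 0.53, edgeR adjusted p = 0.729). The low Col6a5 value belongs to 1 nintedanib library. Col6a6 differed by -0.95 (SE 0.57), with 30.7 and 19.8 CPM against 22.3 and 75.2 CPM, and its groups overlapped. The class median was -0.20, and 0.02 without the first OHSS library.

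At an unadjusted p under 0.05 edgeR passed 1 chain, which was higher, where 7.42% of all genes passed, 3.95% higher and 3.47% lower. The groups did not overlap for 16 chains, 12 higher and 4 lower, against 36.2% of all genes, 19.2% higher and 16.9% lower. The 1 chain was Col25a1, at 3.47 and 2.87 CPM with nintedanib and 0.482 and 0.924 CPM in OHSS, from counts of 100 and 92 against 15 and 28. Its log2 difference was 2.17 (SE 0.45, 95% interval 1.02 to 3.31, edgeR adjusted p = 0.625). DESeq2 gave 2.16 with an adjusted p of 0.0102, and over the alternatives the adjusted p ran from 0.0102 to 0.881. Both nintedanib libraries were above both OHSS and both COH libraries. The same 2 OHSS libraries enter both comparisons as the low ones.

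All 5 endothelial markers had higher means with nintedanib, with sums of 514 to 535 CPM and a median of 0.36, and all 5 granulosa markers did, with a median of 0.32. All 6 stromal fibroblast markers had lower means, with sums of 1191 to 1211 CPM and a median of -0.16. All 3 oocyte markers had higher means, with a median of 0.54 and overlapping sums, and all 3 macrophage markers lower ones, with a median of -0.26 and sums of 79.6 to 86.5 CPM against 93.4 to 116 CPM in OHSS. No marker of these lists was at 0. The 3 tested adipocyte markers also had lower means (median -0.41), and so did all 3 oviduct epithelium markers (median -0.13), each with overlapping sums. Adipoq and Cfd, both adipocyte markers, had 0 counts in the first nintedanib library. The part of these cells in the collagen values was not tested.

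The remaining chains had small levels or small differences. Col12a1 and Col16a1, the most abundant fibril-associated chains, averaged 72.4 and 71.0 CPM. Col12a1 differed by -0.27 (SE 0.14) in OHSS against COH and by 0.16 (SE 0.14) with nintedanib against OHSS, and its groups parted in both. Col16a1 differed by 0.23 and -0.18 (SE 0.22 each), with groups that overlapped in both. Col14a1 differed by -0.66 (SE 0.36) and 0.37 (SE 0.36), and Col22a1 by 0.02 and -0.11 (SE 0.64 each). Col9a2 stood at 23.3 CPM in the second nintedanib library and at 5.59 to 11.2 CPM in the other 5. Col7a1, the chain of the anchoring fibrils under epithelia, stood at 7.05 and 6.65 CPM in the COH pair, 9.42 and 8.41 CPM in the OHSS pair and 7.80 and 8.85 CPM with the drug, a log2 difference of 0.38 (SE 0.18, edgeR adjusted p = 0.615) in OHSS. Both OHSS libraries were thus above both COH libraries for Col7a1. The short-chain network formers Col8a1 and Col8a2, of Descemet's membrane and vessel walls, differed by 0.12 and -0.31 in OHSS and by 0.13 and 0.03 with the drug, each less than its SE of 0.34 to 0.36. Col26a1, a chain described from testis and ovary, averaged 19.5 CPM and differed by -0.02 and 0.10 (SE 0.35 each).

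**Figure D4:**
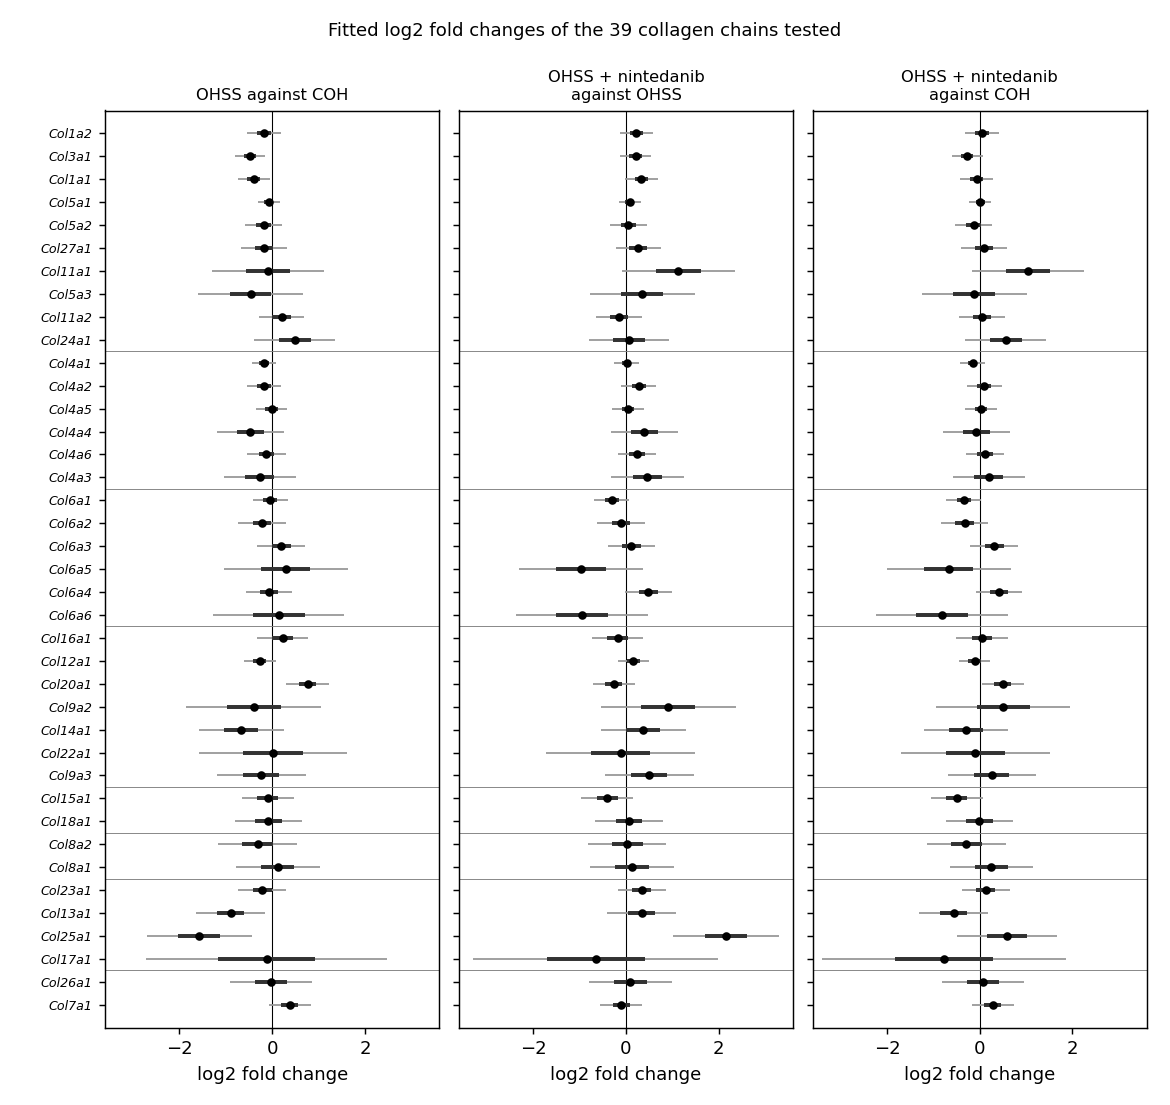
Fitted log2 fold change of each of the 39 tested chains in the 3 comparisons, with thick bars for 1 SE and thin bars for the 95% interval, ordered as by level within class. Most points of the first panel lie left of 0 and most of the second right of 0, and Col25a1 is the point farthest from 0 in both.

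OHSS with nintedanib against COH shares libraries with both other comparisons. Here 21 chains had higher and 18 lower means, where 50.1% of all genes were lower, and the median was 0.03 beside -0.00 for all genes. EdgeR called 0 chains, against 0.0263% of all genes, 0.021% higher and 0.00526% lower. DESeq2 also called 0, against 2.43% of the 17920 genes to which it gave an adjusted p here. Limma voom called 0 as well, against 0.0105% of all genes. The median turned to -0.07 without the first nintedanib library and to -0.03 without the second. Col1a1 differed by -0.06 (SE 0.14), Col1a2 by 0.05 (SE 0.15) and Col4a2 by 0.10 (SE 0.15), and each sign turned when 1 library was left out. Col3a1 stood below COH in both libraries, with a log2 difference of -0.27 (SE 0.13, edgeR adjusted p = 0.553), and Col4a1 with -0.15 (SE 0.10, edgeR adjusted p = 0.651).

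The median of the type VI chains, -0.33, lay farther below COH than that of any other class of more than 2 chains, with 4 of 6 lower. Col6a1, at 737 and 746 against 893 and 985 CPM, differed by -0.34 (SE 0.15, edgeR adjusted p = 0.53), and Col6a2, at 439 and 475 against 546 and 600.1 CPM, by -0.33 (SE 0.20, edgeR adjusted p = 0.629). For both the groups did not overlap. Col6a5 and Col6a6 were also lower, by -0.67 (SE 0.53) with overlapping groups and by -0.81 (SE 0.56) without overlap. The 2 other type VI chains were higher, Col6a4 by 0.41 (SE 0.20) without overlap and Col6a3 by 0.31 (SE 0.21) with overlapping groups. Col15a1, a multiplexin of vessel and muscle basement membranes, stood at 217 and 167 CPM against 232 and 309 CPM, a log2 difference of -0.50 (SE 0.22, edgeR adjusted p = 0.539). It was -0.28 without the second COH library and -0.32 without the second nintedanib library, and reached -0.70 in another refit with 1 library left out. Col18a1, the other multiplexin and the source of endostatin, differed by -0.01 (SE 0.29). Col11a1 was above COH, by 1.04 (SE 0.48, edgeR adjusted p = 0.545), with 21.2 and 48.1 CPM against 21.2 and 12.5 CPM. That difference was 0.33 without the second nintedanib library and 0.70 without the second COH library, and 1.47 to 1.51 without the first library of either group.

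Col20a1 stood at 21.6 and 22.9 CPM with nintedanib against 14.3 and 17.2 CPM in COH, a log2 difference of 0.50 (SE 0.18, edgeR adjusted p = 0.503), and was the 1 chain at an unadjusted p under 0.05, where 9.7% of all genes passed, 5.62% higher and 4.08% lower. The groups did not overlap for 13 chains, 5 higher and 8 lower, against 45% of all genes, 22.3% higher and 22.7% lower. All 6 fibroblast markers had lower means than in COH, with a median of -0.44, and so did all 3 erythroid markers (median -0.82), all 4 surface epithelium markers (-0.42) and all 3 macrophage markers (-0.23). Of the 3 theca and luteal markers 2 had higher means, with a median of 0.98 and sums of 4601 and 3061 CPM. The part of these cells in the collagen values was not tested.

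Ratios between chains within a library do not depend on the scaling between libraries. Their level depends on the transcript length chosen for each gene, but their comparison between libraries does not. Per kb of transcript, the Col1a1 to Col1a2 ratio was 0.680 and 0.661 in the COH pair. It was 0.582 and 0.570 in the OHSS pair, and 0.690 and 0.559 with the drug. The ratio was thus lower in both OHSS libraries than in both COH libraries, while the nintedanib libraries spanned the whole range. With 2 libraries a side, no exact permutation p can fall under 0.333, the rate at which 2 groups part in random order. The ratio of Col4a1 to Col4a2 was 1.43 and 1.53 for COH. It was 1.54 and 1.44 for OHSS, then 1.08 and 1.45 with the drug, where the first library was apart.

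Col6a1 to Col6a2 was 1.58 in each COH library, 1.68 and 1.96 in the OHSS pair and 1.62 and 1.51 with the drug. Col6a1 to Col6a3 was 9.33 and 9.35 in the COH pair, 8.16 and 7.72 in the OHSS pair and 7.23 and 5.06 with the drug, so the 3 groups did not overlap for this pair. Col6a5 to Col6a3 ran from 0.172 in the second nintedanib library to 0.959 in the second COH library. The head-to-head pairs of minor type IV chains held different proportions, with Col4a3 at 0.203 to 0.286 of Col4a4 and Col4a5 at 3.53 to 4.53 times Col4a6. Besides Col1a1 to Col1a2 and Col6a1 to Col6a3, OHSS and COH parted for Col6a1 to Col6a2 and Col4a3 to Col4a4. They overlapped for Col4a1 to Col4a2, Col4a5 to Col4a6 and Col6a5 to Col6a3. The other ratios computed overlapped too, namely Col3a1 to Col1a1, Col5a1 to Col5a2, Col8a1 to Col8a2 and Col11a1 to Col11a2.

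**Figure D5:**
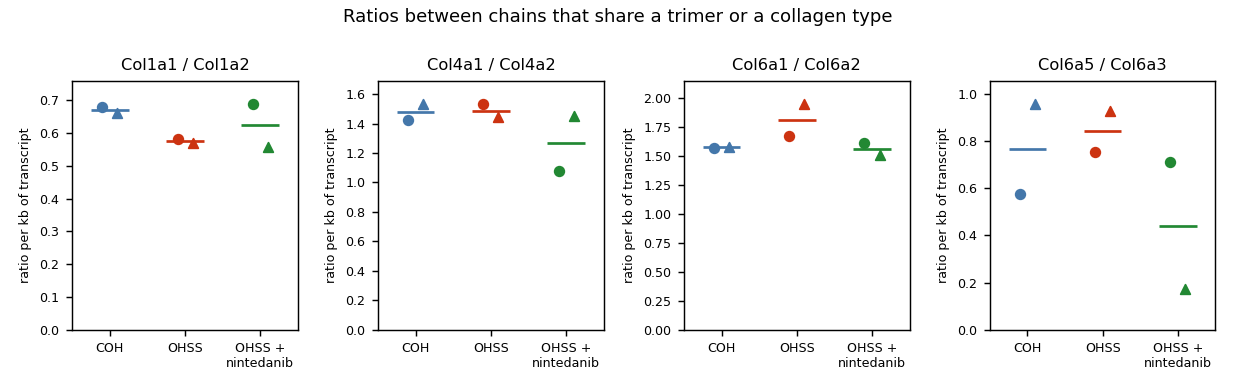
Ratio of CPM per kb of transcript between chains of a collagen type in each library (circle library 1, triangle library 2, line the group mean). The Col1a1 to Col1a2 ratio is lower, and the Col6a1 to Col6a2 ratio higher, in both OHSS libraries than in both COH libraries. For the other 2 ratios shown these groups overlap, and 1 nintedanib library each stands apart for Col4a1 to Col4a2 and for Col6a5 to Col6a3.

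Collagen chains are modified and folded in the endoplasmic reticulum, carried out in large vesicles, trimmed of their end pieces and crosslinked outside the cell. The 79 genes listed for these steps and for the partners and receptors of collagens gave 77 tested genes. EdgeR called 0 of them in each of the 3 comparisons, with an adjusted p of at least 0.468, 0.625 and 0.451, where it called 0.0105%, 0.00526% and 0.0263% of all genes. At an unadjusted p under 0.05 there were 6 higher and 4 lower in OHSS against COH, 8 and 5 with nintedanib against OHSS, and 7 and 5 with nintedanib against COH. Of all genes, 8.82%, 7.42% and 9.7% passed that level in the same order.

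Of 20 modification and folding genes, 12 had lower means in OHSS than in COH (median -0.10) and 16 higher means with nintedanib than in OHSS (median 0.11). Ppib, a prolyl isomerase that speeds collagen folding, stood at 266 and 279 CPM in the COH pair, 215 and 202 CPM in the OHSS pair and 229 and 232 CPM with the drug. It differed by -0.38 (SE 0.09) in OHSS against COH. Plod1, a lysyl hydroxylase, stood at 112 and 111, then 91.7 and 88.3, then 123 and 120.3 CPM in the same order. It differed by -0.31 (SE 0.09) in OHSS and by 0.44 (SE 0.09) with nintedanib against OHSS. Rcn3, a calcium-binding protein of the same compartment, differed by -0.51 (SE 0.14) and 0.38 (SE 0.14). P3h1, a prolyl 3-hydroxylase, went another way, with 98.8 and 93.4, 93.3 and 86.8, and 57.4 and 71.1 CPM, and differed by -0.49 (SE 0.14) with nintedanib against OHSS.

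Of 13 genes of end-piece removal and crosslinking, 8 had lower means in OHSS (median -0.03). Loxl3, a lysyl oxidase-like crosslinking enzyme, stood at 41.0 and 46.6 CPM in the COH pair, 65.9 and 79.7 CPM in the OHSS pair and 50.3 and 58.4 CPM with the drug, a log2 difference of 0.73 (SE 0.15) in OHSS. Loxl1, a family member, stood at 123 and 129, then 97.4 and 76.2, then 91.3 and 77.9 CPM, and differed by -0.54 (SE 0.16). So 2 enzymes of 1 family differed from COH in opposite directions, neither past the adjusted threshold. Adamts2, which removes the amino-terminal end piece, stood at 140.4 and 129.8 CPM in the COH pair, 119 and 120.5 CPM in the OHSS pair and 161 and 156 CPM with the drug, and differed by 0.41 (SE 0.09) with nintedanib against OHSS. In that comparison 7 of the 13 had lower means (median -0.04). Loxl3 differed by -0.42 (SE 0.15) there. Pcolce, another of these genes, stood at 489 and 303 CPM against 538 and 696 CPM in OHSS, by -0.64 (SE 0.26). For both the nintedanib and OHSS libraries did not overlap. Of 9 secretion genes 7 had higher means in OHSS, with a median near 0 (0.02). Sar1a, a GTPase of the transport coat, differed by 1.92 (SE 0.59), from 42.7 and 62.8 CPM in COH to 227 and 171 CPM in OHSS, with 57.0 and 195 CPM under nintedanib.

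Of 12 basement membrane partners, 8 had lower means in OHSS than in COH (median -0.10) and 11 higher means with nintedanib than in OHSS (median 0.23). Pxdn, a peroxidase that crosslinks type IV collagen, stood at 127 and 143 CPM in the COH pair, 123 and 116 CPM in the OHSS pair and 164 and 211 CPM with the drug. It differed by 0.65 (SE 0.15) with nintedanib against OHSS. Lama1, a laminin chain, differed by 1.012 (SE 0.26) and Lama4 by 0.38 (SE 0.11) in the same comparison. Nid1, a linker of laminin and type IV collagen, differed by -0.28 (SE 0.13) in OHSS against COH. Agrn, another of these partners, went the other way, by 0.90 (SE 0.42). It stood at 106 and 99.5 CPM in COH, 267 and 116 CPM in OHSS and 221 and 340 CPM with the drug. Against COH, Agrn differed by 1.45 (SE 0.42) with nintedanib.

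Fibril partners were spread in both directions, with medians of 0.05 and -0.16 over 14 genes. Ogn, osteoglycin, a small leucine-rich proteoglycan of the matrix, stood at 289 and 274 CPM in the COH pair, 366 and 329 CPM in the OHSS pair and 390.2 and 385 CPM with the drug. The 3 groups did not overlap for Ogn, and it differed by 0.30 (SE 0.10) in OHSS against COH and by 0.46 (SE 0.10, edgeR adjusted p = 0.451) with nintedanib against COH. Tnxb, a tenascin, stood at 318 and 748 CPM in OHSS, the second OHSS library being the highest of all 6, with differences of 1.32 (SE 0.49) in OHSS against COH and -1.59 (SE 0.50) with nintedanib against OHSS. Dpt, which helps fibrils to form, stood at 9.92 and 7.89 CPM with nintedanib, below 22.8 and 20.4 CPM in OHSS, a log2 difference of -1.28 (SE 0.33). Fn1, fibronectin, differed by 0.45 (SE 0.15). Of the 9 tested collagen receptors, Ddr2, a receptor kinase for fibrillar collagen, stood at 39.2 and 35.8 CPM in COH and 120 and 102 CPM in OHSS. Its 2 nintedanib libraries stood at 32.2 and 98.7 CPM, and the difference of OHSS against COH was 1.57 (SE 0.51, edgeR adjusted p = 0.542).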

How the data were processed

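Bulk ovary RNA was sequenced in 6 libraries, grouped by sample title. The values are whole-number counts per Ensembl gene, as deposited by the authors. Per the submitters' processing notes, Trimmomatic 0.36, HISAT2 2.1.0, StringTie 1.3.3b and build mm8 were used; which program counted reads, whether strand was used and how multiply mapped reads were treated is not given in those sources. Counts came to 72.1 to 74.0% of reads, so a read pair appears to count as 2. Genes were filtered with filterByExpr (19027 kept), scaled with TMM (factors 0.961 to 1.03) and tested with edgeR 4.0.16 in R 4.3.3 (two-sided quasi-likelihood F test, 1 fit of 3 groups, 3 residual and 2.41 prior degrees of freedom, Benjamini-Hochberg adjustment across every gene tested, calls under 0.05). SE comes from the F statistic. Group levels rest on 2 libraries each. Each SE draws on the spread within all 3 groups, including the group not compared, and on the prior. Transcript lengths and coding sequences come from GENCODE M21, which held 51633 of the 51826 gene IDs and 44 of 44 chains, and the start sites from RefSeq's GRCm38.p6 table, which held 35.

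Levels per library are given for Col1a1, Col1a2, Col3a1, Col4a1 and Col4a2, for the 4 chains with the smallest p per comparison and for the most abundant chains of a class. Pathway genes were named from the 3 of each list with the smallest p in each comparison. Members and lists were chosen with earlier results of these data known. Alternatives were RLE, upper quartile and library size scaling, other filters, DESeq2 1.42.0, limma 3.58.1 voom, a replicate block, fits of the 2 groups compared and each library left out. A check on simulated counts set a condition only on the size of the fitted log2 differences, and none on the calls. Of 79 listed pathway genes, Mia2 had no row and 1 was not tested.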

Additional observations from a re-analysis of the deposited data

How the results depend on the processing

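Of the chains, 0 were called in each comparison by edgeR under each scaling and filter tried, with each library left out, with only the 2 groups compared and with the replicate block, and 0 by limma voom, while DESeq2 called 1 in OHSS against COH (Col20a1), 1 with nintedanib against OHSS (Col25a1) and 0 in the last. The cause was not tested. With the replicate block the chain medians were -0.12, 0.10 and 0.02. Same-numbered libraries did not deviate together, with correlations of -0.001 for COH with OHSS, 0.048 for COH with nintedanib and -0.002 for OHSS with nintedanib. With library size only, the median with nintedanib against OHSS was 0.19, and that of all genes 0.08. With each library left out, the medians ran from -0.17 to -0.08 in OHSS against COH, from 0.053 to 0.20 with nintedanib against OHSS, and from -0.068 to 0.072 with nintedanib against COH. Of the 39 tested chains, up to 9, 7 and 13 changed sign in a refit with 1 library left out, and up to 2, 1 and 2 under another setting. Among the chains named by rule, Col4a1 ran from -0.015 to 0.040 with nintedanib against OHSS, and with nintedanib against COH Col1a1 ran from -0.15 to 0.019, Col1a2 from -0.054 to 0.15 and Col4a2 from -0.10 to 0.27. Genes called of all tested were 2, 1 and 5 with edgeR, 348, 213 and 436 with DESeq2, and 1, 0 and 2 with the block. Chains at an unadjusted p under 0.05 ran from 3 to 7, from 1 to 5 and from 0 to 7. The median SE of a chain was 0.22 in each comparison. Much larger differences also went uncalled by edgeR. Among them were Col20a1 at 0.76 (SE 0.18) in OHSS against COH and Col25a1 at 2.17 (SE 0.45) with nintedanib against OHSS. The lack of calls therefore does not exclude differences of such sizes.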
